A study of Mus musculus with 3 samples.

Results

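The Fos and Jun family of early response genes was followed across the cell classes of the mouse nucleus accumbens, a part of the ventral striatum. The 10 genes were Fos, Fosb, Fosl2, Jun, Junb, Jund, Atf3, Ier2, Btg2 and Dusp1. They were chosen by gene symbol with earlier results of these data known, so counts of them called against neurons describe this list only. All 10 were found among the 28001 features of the count matrix. Single cells were measured in 3 libraries of 1 group. The mice carried the light-gated cation channel channelrhodopsin (strain Thy1::ChR2, in which the Thy1 promoter drives the channel), and the cells had been labelled with FLiCRE while the channel was stimulated with light in the accumbens. FLiCRE is a reporter system that turns calcium entry during light into transcription. The tissue was a coronal dissection of 400 µm, dissociated by a protocol for adult mammalian brain. All 3 libraries share the strain, the labelling, the stimulation and the dissociation. No unstimulated, unlabelled or otherwise processed group was analysed here, so the parts of these steps in a level cannot be told apart, and each comparison sets one class beside another. The age and sex of the mice, and whether a library came from 1 mouse or several, are not given in the sources used here.

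Fos and Jun proteins pair through a leucine zipper and bind DNA as the transcription factor AP-1. Their genes are early response genes, copied within minutes of calcium entry, growth factors, cytokines or stress, without the need for new protein. In the striatum Fos is best known as a mark of recently active neurons, but glia, immune cells and vessel cells carry the same genes.

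Cells were put into classes from marker genes alone, none of which is 1 of the 10 genes. Of 10291 cells kept, 5304 were neurons, 1280 oligodendrocytes, 983 astrocytes, 455 endothelial cells, 347 microglia, 311 MHC class II myeloid cells, 235 mural cells and 110 oligodendrocyte precursors. These 8 classes had at least 10 cells in every library and were tested. T cells (66) and fibroblasts (39) did not, and 721 cells with mixed markers and 440 with too few marker counts were left out. Clustering without the early genes gave the same name to between 94.2% (microglia) and 99.8% (endothelial cells) of the cells of each tested class. The clustering kept the class markers and its clusters were named from them, so this agreement is not independent of the gate. The gate selects cells by these markers, so a lead of the markers in their own class is built in. The 10 leading genes of each of these classes by fold held at least 4 of its own markers, such as Tmem119 and P2ry12 for microglia and Cldn5 for endothelial cells. The MHC class II class (Cd74, H2-Aa) also had Spp1 and Gpnmb, genes of activated macrophages, among them. Library 1 was the shallowest, with a median of 992 UMIs (molecules counted once through a tag) per kept cell, against 2123 and 2705 in libraries 2 and 3. The numbers of the libraries are only names. The libraries shared 11 (1 and 2), 6 (1 and 3) and 17 (2 and 3) barcode sequences.

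Levels are given as CPM, the usual scaling of a gene's counts to all UMIs of the class in that library, always in the order of libraries 1, 2 and 3. Differences are log2 fold changes (± SE) from an edgeR quasi-likelihood fit to the summed counts, with a term for the library and p-values adjusted over all 8770 genes tested. All tested classes were fitted together, so the p-values rest on the spread of the class sums that remains after the library term, shared among the classes. Nothing says that the libraries came from separate animals, so this spread concerns these libraries only. The fit scales the sums by TMM and not by all UMIs, so a fitted fold can differ from the ratio of the CPM values. A gene was called higher or lower at an adjusted p below 0.05. All 10 genes passed the filter on low counts.

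Against neurons, 40 of 70 pairs of a gene and a non-neuronal class were called higher, 12 lower and 18 neither. MHC class II myeloid cells had all 10 genes higher, in a comparison that called 22.5% of all genes higher. Microglia had 8 higher and none lower, with 21.3% and 30.7% of all genes called. Mural cells, the contractile cells around vessels, had 7 higher (18.2% of all genes), and endothelial cells had 6 (25.3% of all genes). Neither vessel class had a gene of the family called lower, where 26.5% and 31.4% of all genes were. The glia of neural origin were split. Oligodendrocytes had 4 higher and 5 lower (26.2% and 33% of all genes), astrocytes 2 higher and 4 lower (27.8% and 32%), and precursors 3 higher and 3 lower (12.1% and 21.9%). Set against these background shares, the counts in the 3 glial classes differ by at most 2 genes in either direction. The median log2 fold change of the 10 genes was 3.24 in microglia, 2.91 in MHC class II myeloid cells, 2.23 in mural and 1.78 in endothelial cells. The medians of all genes in these 4 comparisons lay between -0.4 and -0.18. In astrocytes, oligodendrocytes and precursors the median of the 10 genes was -0.45, -0.62 and -0.27.

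**Figure D1:**
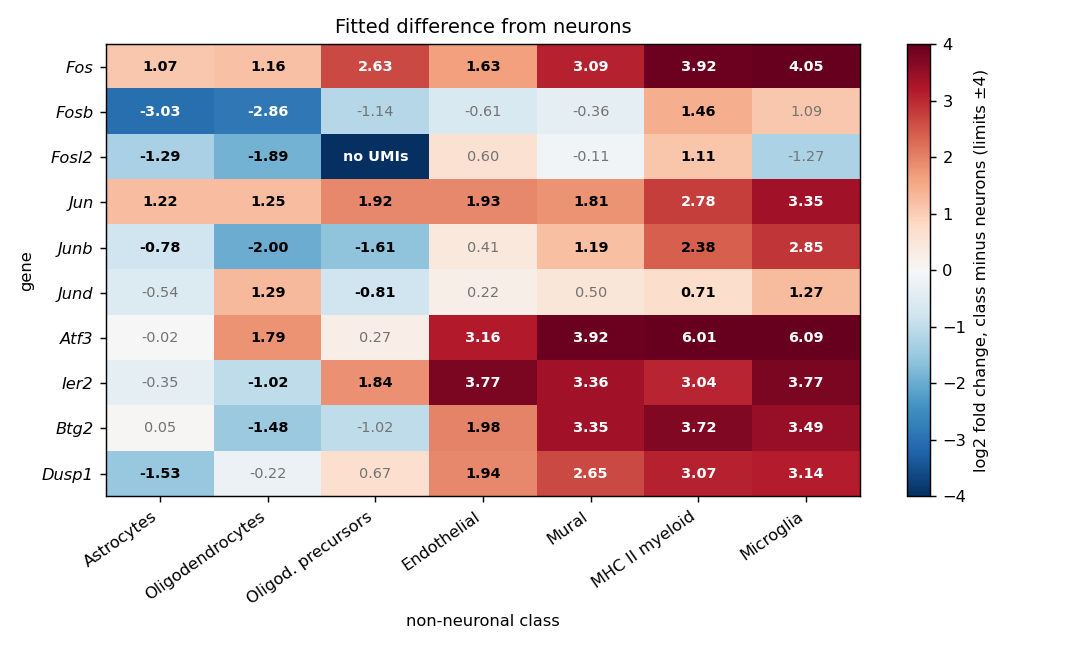
Fitted log2 fold change of each gene (rows) in each non-neuronal class (columns) minus neurons, in bold where the edgeR adjusted p was below 0.05. Only the rows of Fos and Jun are bold and positive in all 7 classes, and the 4 columns on the right hold no gene called lower; colours stop at 4 in either direction, and Fosl2 had no UMIs in precursors.

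Fos, the founding partner of AP-1, was higher than in neurons in all 7 non-neuronal classes. In neurons it stood at 20.5, 53 and 99.1 CPM. In microglia, the resident immune cells of the brain, it stood at 604, 594 and 860.2 CPM (log2 fold change 4.05 ± 0.41, edgeR adjusted p = 1.93e-09). The lowest microglial library was several times the highest neuronal one. MHC class II myeloid cells followed with 433, 532 and 586 CPM (3.92 ± 0.41, edgeR adjusted p = 3.07e-09). Every library of theirs was below every microglial one. Mural cells had 210.2, 749 and 277 CPM (3.09 ± 0.42, edgeR adjusted p = 5.45e-07). Library 2 stood far above the others there, and without it the difference was 1.97 (edgeR adjusted p = 7.41e-04). Precursors of oligodendrocytes had 157, 451 and 565 CPM (2.63 ± 0.43, edgeR adjusted p = 1.99e-05), and endothelial cells, which line the vessels, had 113, 113 and 212 CPM (1.63 ± 0.41, edgeR adjusted p = 0.00114). None of these 5 classes overlapped neurons, although library 1 rested on 5 Fos UMIs in mural cells and 4 in precursors.

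Astrocytes and oligodendrocytes showed a smaller Fos difference. Fos stood at 40.99, 89.3 and 144 CPM in astrocytes (1.07 ± 0.38, edgeR adjusted p = 0.0179) and at 28.8, 116 and 133 CPM in oligodendrocytes (1.16 ± 0.38, edgeR adjusted p = 0.00992). Both were above neurons within each library, but their ranges overlapped that of neurons across libraries. The astrocyte call was lost with DESeq2 (adjusted p = 0.06003), with at most 10% mitochondrial UMIs per cell (0.0971), with clusters in place of the gate (0.05402) and without the library term (0.124). The oligodendrocyte call was lost with DESeq2 (adjusted p = 0.0988), clusters (0.0601), no library term (0.09) or without library 2 (0.79, adjusted p = 0.0683). In the order of mean Fos levels, the range of microglia did not overlap that of MHC class II myeloid cells, the next class. Every later class (mural, precursor, endothelial, oligodendrocyte, astrocyte, neuron) overlapped its neighbour in that order.

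**Figure D2:**
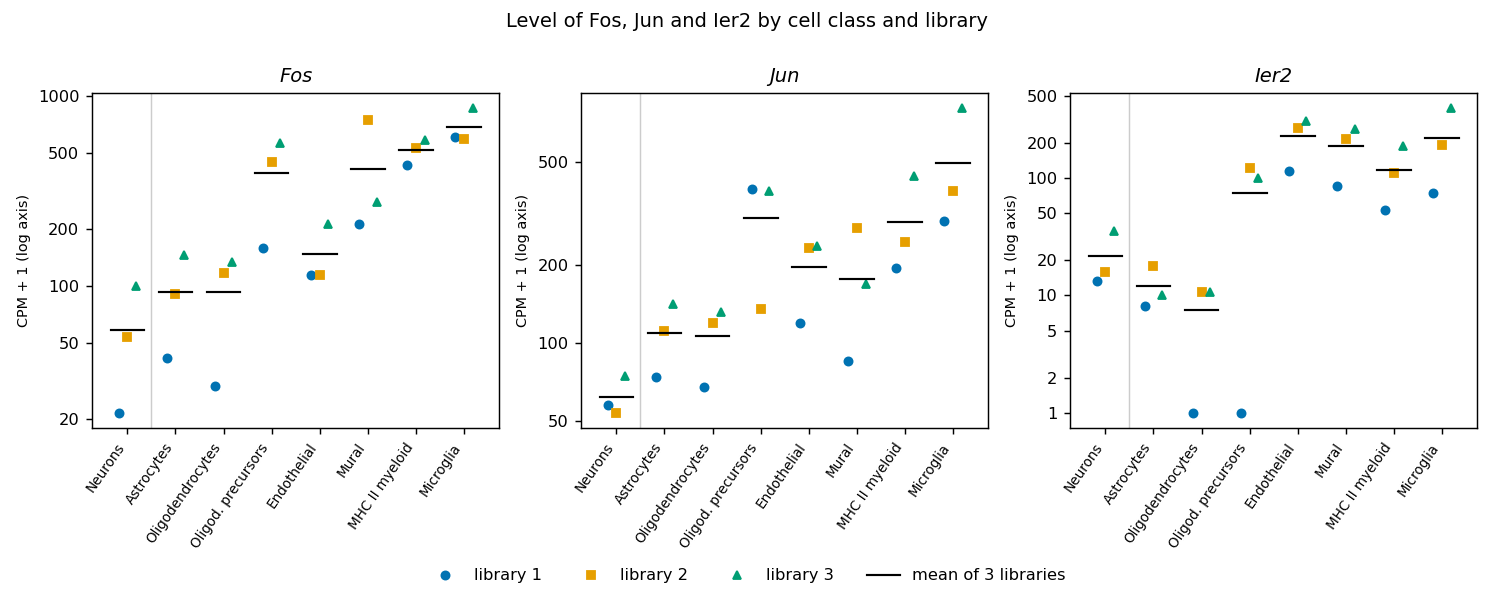
Level of Fos, Jun and Ier2 (CPM + 1, log axis) in each class, with 1 point per library and a bar at the mean of 3 libraries; a level of 0 is drawn at 1. Fos and Jun are lowest on average in neurons, whereas the mean of Ier2 is lower in astrocytes and oligodendrocytes than in neurons and higher in the vessel and myeloid classes.

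The start regions of the genes that were called higher than neurons in at least 4 classes are shown. They were chosen from these calls, and Btg2 and Dusp1 were also called lower in 1 class each. Sequences came from RefSeq (GRCm38.p6), where 9 of the 10 genes had an entry and Ier2 had none. Each line gives the 250 bases before the RefSeq start, 5′ to 3′ on the gene's strand. The windows of Atf3 and Dusp1 lie inside the GENCODE genes given below, which begin further upstream. Capitals mark TGACG on either strand, the core of the cAMP response element through which CREB proteins bind, and the full element TGACGTCA, made of 2 overlapping cores.
Fos (chr12:85473640-85473889, plus strand): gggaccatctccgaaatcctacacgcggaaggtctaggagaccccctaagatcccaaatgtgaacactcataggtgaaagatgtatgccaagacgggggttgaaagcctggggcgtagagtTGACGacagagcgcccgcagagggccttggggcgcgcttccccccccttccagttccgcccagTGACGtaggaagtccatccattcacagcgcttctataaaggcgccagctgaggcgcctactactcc
Jun (chr4:95052223-95052472, minus strand): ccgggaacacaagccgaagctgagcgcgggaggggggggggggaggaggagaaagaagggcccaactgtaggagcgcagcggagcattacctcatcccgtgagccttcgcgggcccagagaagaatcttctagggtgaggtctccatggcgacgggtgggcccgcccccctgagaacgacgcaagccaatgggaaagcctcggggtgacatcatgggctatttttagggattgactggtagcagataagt
Atf3 (chr1:191183334-191183583, minus strand): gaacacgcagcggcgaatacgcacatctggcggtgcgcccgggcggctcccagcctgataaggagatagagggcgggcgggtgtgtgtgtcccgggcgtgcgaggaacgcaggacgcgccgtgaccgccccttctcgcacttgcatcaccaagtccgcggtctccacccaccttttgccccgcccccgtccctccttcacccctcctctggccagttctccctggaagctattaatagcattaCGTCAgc
Btg2 (chr1:134079156-134079405, minus strand): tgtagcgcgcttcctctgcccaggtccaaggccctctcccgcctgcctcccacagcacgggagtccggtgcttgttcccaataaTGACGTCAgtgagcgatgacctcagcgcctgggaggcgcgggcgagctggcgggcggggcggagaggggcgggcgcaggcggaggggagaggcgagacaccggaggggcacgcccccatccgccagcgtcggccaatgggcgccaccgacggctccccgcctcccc
Dusp1 (chr17:26508473-26508722, minus strand): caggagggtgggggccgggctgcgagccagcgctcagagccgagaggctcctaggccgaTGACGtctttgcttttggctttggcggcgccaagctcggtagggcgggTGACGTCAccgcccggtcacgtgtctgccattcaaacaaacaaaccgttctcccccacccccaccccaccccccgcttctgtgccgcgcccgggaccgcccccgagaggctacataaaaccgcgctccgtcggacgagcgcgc
Btg2 and Dusp1 hold the full element in this window, as do 1.55% of the 32851 entries of the table over the same 250 bases. The core lies in the windows of 6 of the 9 genes (Fos, Fosb, Junb, Btg2, Dusp1 and Atf3) and in 17.8% of all entries. In Fos the second core is followed downstream by the letters TATAAA, which 12.4% of all entries hold on either strand. Neither the AP-1 motif TGANTCA (6.75% of entries) nor the CArG box of serum response factor (1.47%) was matched in the windows of these 9 genes. A match is a description of letters, and its absence concerns this window only.

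Fosb and Fosl2, the other Fos proteins measured, did not follow Fos. Fosb stood at 23.6, 19.1 and 37.3 CPM in neurons and fell in astrocytes to 3.56, 0 and 5.201 CPM (-3.03 ± 0.58, edgeR adjusted p = 1.18e-05) and in oligodendrocytes to 2.22, 3.75 and 1.498 CPM (-2.86 ± 0.55, edgeR adjusted p = 1.06e-05). Every library of these 2 classes lay below every neuronal one. MHC class II myeloid cells were called higher at 67.8, 39.4 and 11.1 CPM (1.46 ± 0.46, edgeR adjusted p = 0.00616), but library 3 lay below neurons. Without library 1 that difference was 0.92 (edgeR adjusted p = 0.236), and it missed the threshold too without library 2 (adjusted p = 0.0622), with DESeq2 and with no library term. Microglia had 24.7, 29.3 and 76.8 CPM and did not pass (1.09 ± 0.503, edgeR adjusted p = 0.0638). It passed under 4 alternatives, with at least 1000 UMIs (adjusted p = 0.0262), with clusters as classes (0.0396), with a fit of only the class and neurons (0.0265) and with upper quartile scaling (0.02504). Libraries 1 and 2 of microglia lay within the neuronal range and library 3 above it. The levels rest on few molecules outside neurons, 84 UMIs against 338 in neurons.

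Fosl2, which encodes the Fos protein FRA-2, stood at 14.4, 38.8 and 28.98 CPM in neurons and was lower in astrocytes (3.56, 8.47 and 14.3 CPM, -1.29 ± 0.42, edgeR adjusted p = 0.00736) and oligodendrocytes (6.65, 6.76 and 4.49 CPM, -1.89 ± 0.45, edgeR adjusted p = 2.59e-04). No Fosl2 UMI was found among 208600 UMIs of precursors, which makes its level there at least 1.904-fold lower than in neurons (3 counts over the class set the limit, 14.4 CPM). The call there (edgeR adjusted p = 0.00748) was lost without library 3 (adjusted p = 0.0857). MHC class II myeloid cells had 46.9, 42.2 and 33.2 CPM (1.11 ± 0.45, edgeR adjusted p = 0.0351). They overlapped neurons, the call was lost under 6 alternatives, and without library 1 the difference was 0.54 (edgeR adjusted p = 0.407). Microglia, with the highest Fos, had 0, 14.7 and 7.68 CPM of Fosl2, which did not pass against neurons (-1.27 ± 0.69, edgeR adjusted p = 0.121).

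Jun, the main partner of Fos, was higher than in neurons in all 7 classes as well. Neurons had 56.4, 52.6 and 73.3 CPM, a narrow range. Microglia had 296, 385 and 806 CPM (3.35 ± 0.298, edgeR adjusted p = 8.87e-14), and MHC class II myeloid cells had 193, 245 and 442 CPM (2.78 ± 0.298, edgeR adjusted p = 2.93e-11). All 6 of these values lay above all neuronal ones. Precursors had 392, 134 and 386 CPM (1.92 ± 0.34, edgeR adjusted p = 1.09e-05), endothelial cells 118, 231 and 235 CPM (1.93 ± 0.29, edgeR adjusted p = 1.12e-07) and mural cells 84.1, 276 and 168 CPM (1.81 ± 0.33, edgeR adjusted p = 9.79e-06). Again none overlapped neurons, although mural library 1 was close and rested on 2 UMIs. The mural call was lost without library 2, with a difference of 0.997 (edgeR adjusted p = 0.0767). Astrocytes had 73.1, 110.1 and 140.4 CPM (1.22 ± 0.28, edgeR adjusted p = 1.74e-04) and oligodendrocytes 66.5, 119 and 131 CPM (1.25 ± 0.28, edgeR adjusted p = 1.23e-04), above neurons within each library and overlapping them across libraries. These 2 calls held under every alternative run. The ranges of each class and the next in the order of mean Jun levels overlapped throughout.

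Junb, a Jun protein that can oppose Jun, was split in direction between classes. Neurons had 235, 233 and 335 CPM. Microglia had 1345, 986 and 2158 CPM (2.85 ± 0.34, edgeR adjusted p = 1.19e-08) and MHC class II myeloid cells 866, 845 and 896 CPM (2.38 ± 0.34, edgeR adjusted p = 2.89e-07). Microglia, MHC class II myeloid cells and neurons formed 3 ranges without overlap. Oligodendrocytes had 28.8, 51.1 and 65.9 CPM (-1.997 ± 0.35, edgeR adjusted p = 9.51e-06) and precursors 39.2, 60.9 and 178 CPM (-1.61 ± 0.47, edgeR adjusted p = 0.00694), both below all neuronal libraries, while the same precursors were high in Fos and Jun. Astrocytes had 73.1, 120.1 and 166 CPM (-0.78 ± 0.33, edgeR adjusted p = 0.0416), also below all neuronal libraries, a call lost without library 3 (adjusted p = 0.183), with clusters, with no library term and with upper quartile scaling. Mural cells had 42.03, 738 and 738 CPM (1.19 ± 0.35, edgeR adjusted p = 0.00538), where library 1 was low and the call was lost without library 2 (0.69, adjusted p = 0.179), with clusters, with no library term and in a fit of mural cells and neurons alone. Endothelial cells had 215, 327 and 356 CPM and did not pass (0.41 ± 0.33, edgeR adjusted p = 0.305).

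Jund, the Jun protein that most cells make at rest, was the most abundant of the 10 genes in UMIs, with 11958 in the 8 tested classes, T cells and fibroblasts together. It was high in oligodendrocytes, at 796, 781 and 1063 CPM (1.29 ± 0.25, edgeR adjusted p = 1.15e-05) against 482, 442 and 552 CPM in neurons. Microglia had 876, 667 and 1237 CPM (1.27 ± 0.26, edgeR adjusted p = 3.53e-05). Both classes lay above all neuronal libraries. Precursors had 157, 365 and 406 CPM (-0.81 ± 0.29, edgeR adjusted p = 0.0269) and lay below all neuronal libraries, whereas the oligodendrocytes that such cells can form lay above them. That precursor call was lost without library 1 (-0.57, adjusted p = 0.1403), without library 3 (adjusted p = 0.1798) and under 4 other alternatives. MHC class II myeloid cells had 469, 521 and 608 CPM (0.71 ± 0.26, edgeR adjusted p = 0.0161), overlapping neurons. Their CPM ratio to neurons was 0.973, 1.18 and 1.1 in libraries 1 to 3, less than the fitted fold. The call was lost without library 1 (adjusted p = 0.0622) or library 2 (0.0848) and under 3 other alternatives. Mural cells had 715, 681 and 671 CPM, above every neuronal library, and did not pass (0.496 ± 0.27, edgeR adjusted p = 0.128). Astrocytes (169, 305 and 299 CPM) lay below every neuronal library but missed the threshold (-0.54 ± 0.25, edgeR adjusted p = 0.05502).

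Atf3, a stress-induced factor that pairs with Jun, was highest in the myeloid classes and close to 0 in neurons. Neurons had 4.103, 4.44 and 1.91 CPM, from 56 UMIs in all. Microglia had 185, 136 and 246 CPM (6.09 ± 0.54, edgeR adjusted p = 1.92e-11), and MHC class II myeloid cells 209, 194 and 22.1 CPM (6.01 ± 0.53, edgeR adjusted p = 1.43e-11). Library 3 of the latter, with 2 UMIs, was far below the others but still above neurons. Endothelial cells had 16.1, 44.3 and 16.8 CPM (3.16 ± 0.64, edgeR adjusted p = 8.03e-05), from 3, 18 and 5 UMIs, and did not overlap neurons. Mural cells had 0, 90.1 and 16.8 CPM (3.92 ± 0.75, edgeR adjusted p = 5.84e-05), and oligodendrocytes 0, 10.5 and 11.2 CPM (1.79 ± 0.603, edgeR adjusted p = 0.0109), both with a library at 0. The mural difference without library 2 was 2.4 (adjusted p = 0.281), and the oligodendrocyte call was lost without library 3 (0.0924) and with DESeq2 (0.101).

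Ier2, an early response gene for a nuclear protein outside the AP-1 family, was highest in vessel cells and microglia. Endothelial cells had 113, 263 and 306 CPM (3.77 ± 0.33, edgeR adjusted p = 2.62e-14), against 12.3, 14.96 and 34.4 CPM in neurons. Microglia had 74.02, 191 and 392 CPM (3.77 ± 0.35, edgeR adjusted p = 2.36e-13), mural cells 84.1, 214 and 259.9 CPM (3.36 ± 0.37, edgeR adjusted p = 6.98e-11) and MHC class II myeloid cells 52.1, 109.8 and 188 CPM (3.04 ± 0.37, edgeR adjusted p = 6.32e-10). All 12 of these values lay above all neuronal ones, and the ranges of the 4 classes overlapped one another. In library 1 they rested on few molecules, 2 UMIs in mural cells, 6 in microglia and 10 in MHC class II myeloid cells. Precursors had 0, 122 and 99.05 CPM (1.84 ± 0.48, edgeR adjusted p = 0.00186), with no UMI in library 1. Without library 2 that difference was 1.09 (adjusted p = 0.196). Oligodendrocytes had 0, 9.76 and 9.73 CPM, below every neuronal library (-1.02 ± 0.405, edgeR adjusted p = 0.0276). That call was lost without library 1 (-0.82, adjusted p = 0.0862) or library 3 (-0.57, adjusted p = 0.454), and under 3 other alternatives, while without library 2 the difference was -1.71. Astrocytes had 7.13, 16.9 and 9.102 CPM and did not pass (-0.35 ± 0.39, edgeR adjusted p = 0.451). Ier2 was thus called higher than neurons in 5 of 7 classes.

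Btg2, which encodes an antiproliferative protein that acts on mRNA decay, was higher in the 4 myeloid and vessel classes. Neurons had 28.7, 19.7 and 65.3 CPM. MHC class II myeloid cells had 136, 141 and 995 CPM (3.72 ± 0.45, edgeR adjusted p = 7.60e-08), where library 3 stood far above the others and 1 cell of the class held 46 of the 166 UMIs. Microglia had 173, 176 and 676 CPM (3.49 ± 0.46, edgeR adjusted p = 3.18e-07) and mural cells 84.1, 467 and 201 CPM (3.35 ± 0.48, edgeR adjusted p = 1.80e-06). None of these 3 overlapped neurons, and without library 2 the mural difference was 1.52 (adjusted p = 0.00685). Mural library 1 rested on 2 Btg2 UMIs. Endothelial cells had 80.7, 59.04 and 248 CPM (1.98 ± 0.46, edgeR adjusted p = 5.53e-04) and were above neurons within each library but overlapped them across libraries. Oligodendrocytes were lower at 2.22, 10.5 and 12.7 CPM (-1.48 ± 0.54, edgeR adjusted p = 0.0201). Without library 3 this was -0.93 (adjusted p = 0.181), without library 1 it also missed the threshold (0.185), and without library 2 it was -2.28.

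Dusp1, a phosphatase that switches off MAP kinases, was higher in the same 4 classes. It stood at 42.1, 67.96 and 81.2 CPM in neurons, 395, 264 and 653 CPM in microglia (3.14 ± 0.35, edgeR adjusted p = 8.49e-10), 224, 309.8 and 597 CPM in MHC class II myeloid cells (3.07 ± 0.35, edgeR adjusted p = 8.82e-10) and 210.2, 529 and 361 CPM in mural cells (2.65 ± 0.36, edgeR adjusted p = 9.63e-08). Endothelial cells had 91.4, 266 and 279 CPM (1.94 ± 0.34, edgeR adjusted p = 4.66e-06). None of the 4 classes overlapped neurons, and these calls held under every alternative run. Mural library 1 rested on 5 Dusp1 UMIs. Astrocytes had 12.5, 21.6 and 15.6 CPM, below every neuronal library (-1.53 ± 0.39, edgeR adjusted p = 9.15e-04), a call lost without library 3 (adjusted p = 0.0637) and with at most 10% mitochondrial UMIs (0.0964). Oligodendrocytes (8.87, 48.05 and 62.9 CPM) and precursors (0, 207 and 109 CPM) did not pass.

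The classes outside neurons were then compared with one another, each against the mean log level of the other 6. Microglia had 9 of the 10 genes higher (all but Fosl2) and MHC class II myeloid cells 9 (all but Jund), where 14.9% and 15.6% of all genes were called higher. Neither had a gene called lower (7.62% and 6.96% of all genes). Fosb in microglia lost its call without library 3 (adjusted p = 0.0601). Fos in microglia was above that mean by 1.803 ± 0.28, edgeR adjusted p = 9.25e-06, and in MHC class II myeloid cells by 1.65 ± 0.28, edgeR adjusted p = 3.39e-05. Mural cells had Junb, Ier2, Btg2 and Dusp1 higher (10% of all genes) and none lower (5.01%), and Fos there did not pass (0.68 ± 0.32, edgeR adjusted p = 0.1805), with -0.35 without library 2. Without that library, Junb (0.56, adjusted p = 0.385) and Btg2 (0.68, adjusted p = 0.398) lost their calls in mural cells, and Junb did so without library 3 as well (adjusted p = 0.0758). Endothelial cells had 2 genes higher (18.1% of all genes), Ier2 (1.996 ± 0.24, edgeR adjusted p = 6.33e-10) and Fosl2, and 1 lower (8.1% of all genes), Fos (-1.03 ± 0.34, edgeR adjusted p = 0.0242). For Fosl2 the mean level was 37.7 CPM in endothelial cells and 13.5 CPM over the other 6 classes (edgeR adjusted p = 9.44e-04), and 40.8 against 12.9 CPM for MHC class II myeloid cells (adjusted p = 9.04e-05). The other 6 include precursors, which had no Fosl2 UMI, so the fitted mean log level has no interpretable size for this gene, and both Fosl2 calls rest partly on a class at 0. The Fos call was lost without library 2 (-0.67, adjusted p = 0.163).

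Astrocytes had 9 genes lower than the other non-neuronal classes (all but Fosl2), where 11.3% of all genes were called lower, and none higher (26.3%). Oligodendrocytes had 7 lower (13.4% of all genes) and 1 higher (22.7%), which was Jund (1.06 ± 0.18, edgeR adjusted p = 2.06e-06). Precursors had Fosl2, Junb, Jund and Btg2 lower (8.38% of all genes) and none higher (10.3%). In astrocytes, Atf3 lost its call without library 2 (-2.22, adjusted p = 1), Fosb without library 2 (-1.74, adjusted p = 0.0736) and Btg2 without library 1 (adjusted p = 0.05396). In oligodendrocytes Fosb lost it without library 3 (-1.52, adjusted p = 0.159). Btg2 in precursors was lost without library 1 (adjusted p = 0.137) and without library 3 (0.0566), and Fosl2 in precursors without library 1 (0.07405) and library 3 (0.148), and under 5 other alternatives (DESeq2, at least 1000 UMIs, at most 10% mitochondrial UMIs, clusters and the stricter gate). Fos and Jun in precursors did not differ from that mean past the threshold (0.15 ± 0.35, edgeR adjusted p = 0.866 and -0.13 ± 0.28, edgeR adjusted p = 0.841).

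Counted as molecules, most Fos and Ier2 lay outside neurons although neurons were 51.5% of the cells kept. Neurons held 27.5% ± 16.2 (SD, n = 3 libraries) of the Fos UMIs, 32.6% ± 10.7 of Jun and 28.96% ± 7.53 of Ier2. The share for Atf3 was 12.7% ± 8.64, and for Fosb 72.5% ± 17.8. These shares depend on how many cells of each class were caught and on their depth. Over all genes, neurons held 974985, 10358568 and 3139802 UMIs in libraries 1 to 3. All kept cells, unclassed ones included, held 2868822, 15625072 and 6440580. Of the UMIs outside neurons, the 2 myeloid and 2 vessel classes together held 82.05% ± 2.27 for Ier2, 61.8% ± 18.2 for Fos and 46.98% ± 5.11 for Jun. For Fos the share was 79.4% in library 1, 63.1% in library 2 and 43% in library 3. Endothelial cells alone held 40.3% ± 4.33 of Ier2 and 8.803% ± 2.88 of Fos, beside 10.8% ± 0.973 of all UMIs outside neurons. Microglia held 20.8% ± 3.35 of Fos and 17.6% ± 4.85 of Ier2, beside 5.48% ± 1.13 of all UMIs. Oligodendrocytes held 53.7% ± 10.1 of Jund and 3.37% ± 2.99 of Ier2, beside 36.1% ± 9.31 of all UMIs. Against their share of all UMIs, endothelial cells were over-represented in Ier2, microglia in Fos and oligodendrocytes in Jund.

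**Figure D3:**
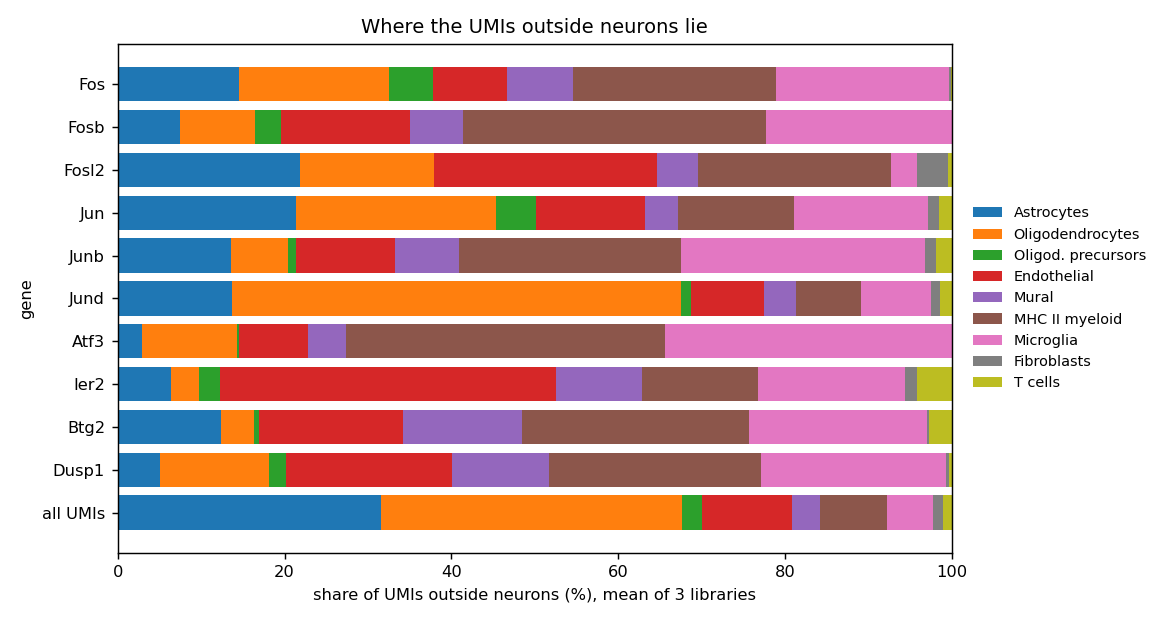
Share of each gene's UMIs outside neurons that lie in each class (mean of 3 libraries, %), with all UMIs as the lowest bar. Microglia and MHC class II myeloid cells are thin in the bar of all UMIs and wide in those of Fos, Junb and Atf3, endothelial cells are widest in Ier2, and oligodendrocytes hold more than 50% of Jund only.

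The share of cells with at least 1 UMI depends on depth, so each cell was also thinned to 1000 UMIs, which left out shallower cells. The thinning kept 4563 neurons, 807 astrocytes, 982 oligodendrocytes, 77 precursors, 166 microglia, 192 MHC class II myeloid cells, 286 endothelial and 129 mural cells. Only 2 mural cells of library 1 remained, so mural shares are given for libraries 2 and 3. Median depths before thinning were 2207 UMIs in neurons and 961 in microglia. Thinning left out 39 of 68, 98 of 194 and 44 of 85 microglia of libraries 1 to 3, against 394 of 838, 264 of 3581 and 83 of 885 neurons. The thinned shares of libraries 2 and 3 thus set the deeper microglia beside most of the neurons. Removing UMIs cannot raise a share, so a share that rose after thinning reflects which cells were kept.

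Fos was found in 1.13%, 4.55% and 6.98% of thinned neurons (2.39%, 11.3% and 18.1% before thinning) and in 34.5%, 25% and 36.6% of thinned microglia (25%, 20.6% and 28.2% before). Neurons lay below microglia in each library. The share was 21.1%, 28.7% and 25% in MHC class II myeloid cells (27.2%, 38.8% and 39.3% before) and 30%, 17.9% and 46.4% in precursors (17.4%, 23.6% and 62.5% before). It was 26.2% and 8.51% in mural cells (9.09%, 17.2% and 14.04% in libraries 1 to 3 before). All of these exceeded neurons of the same library, mural library 3 by less than counting error (exact 95% interval 2.37% to 20.4%, against 6.98% of neurons). Endothelial cells had 3.03%, 4.86% and 7.89% (6.33%, 7.32% and 25% before), astrocytes 5.53%, 6.27% and 17.9% (6.58%, 18.3% and 35.4% before) and oligodendrocytes 3.85%, 6.81% and 6.98% (3.12%, 17.03% and 28.2% before). Oligodendrocytes of library 3 stood at the neuronal share, and endothelial cells of libraries 2 and 3 were within 1 percentage point of it. T cells, at a median of 1103 UMIs, had 0%, 5.26% and 14.3% before thinning and no thinned cell with Fos. Of the endothelial Fos UMIs, 80% lay in the 23 cells that held the most. The top 5% of cells held 65.5% of the Fos UMIs in mural cells, 63.6% in neurons, 61.9% in oligodendrocytes, 54.1% in precursors, 53.9% in microglia, 49.6% in astrocytes and 42.2% in MHC class II myeloid cells.

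Jun was found in 5.41%, 5.03% and 5.74% of thinned neurons (5.73%, 11.4% and 17.3% before), 20.7%, 19.8% and 31.7% of microglia (25%, 21.6% and 31.8% before) and 20%, 12.8% and 35.7% of precursors (26.1%, 10.9% and 50% before). The shares were 13.6%, 17.4% and 13.2% in endothelial cells (11.4%, 27.3% and 31.5% before), 14.1%, 17.8% and 20% in MHC class II myeloid cells (15.4%, 31.3% and 32.1% before), 7.66%, 9.27% and 12.1% in astrocytes (11.6%, 22.6% and 32.3% before) and 6.04%, 10.4% and 13.3% in oligodendrocytes (6.25%, 22.3% and 34.3% before). In mural cells they were 15% and 8.51% (6.06%, 13.1% and 8.77% in libraries 1 to 3 before). All of these classes lay above neurons of the same library. The neuronal Jun share at equal depth was the lowest of the tested classes and hardly moved between libraries.

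Ier2 was found in 0.676%, 1.21% and 1.87% of thinned neurons (1.31%, 3.83% and 8.02% before), and in 10.6%, 25% and 18.4% of endothelial cells (13.3%, 37.1% and 41.3% before). Mural cells had 13.8% and 14.9% (6.06%, 16.6% and 31.6% in libraries 1 to 3 before), microglia 6.897%, 14.6% and 21.95% (8.82%, 13.4% and 17.6% before) and MHC class II myeloid cells 2.82%, 9.901% and 15% (6.62%, 19.05% and 25% before). Each exceeded neurons of its library. Astrocytes had 0.426%, 1.75% and 1.16% (1.25%, 4.26% and 3.59% before) and oligodendrocytes 0%, 1.002% and 0.332% (0%, 2.17% and 2.88% before). Oligodendrocytes lay below neurons in each library, and astrocytes on either side of them. Free RNA can add UMIs to any droplet, and its part in these shares was not tested. Precursors had 0%, 5.13% and 10.7% (0%, 10.9% and 25% before). The 0 of 10 thinned precursor cells in library 1 allow a share of up to 30% (3 counts). Intervals and limits cover counting error only.

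**Figure D4:**
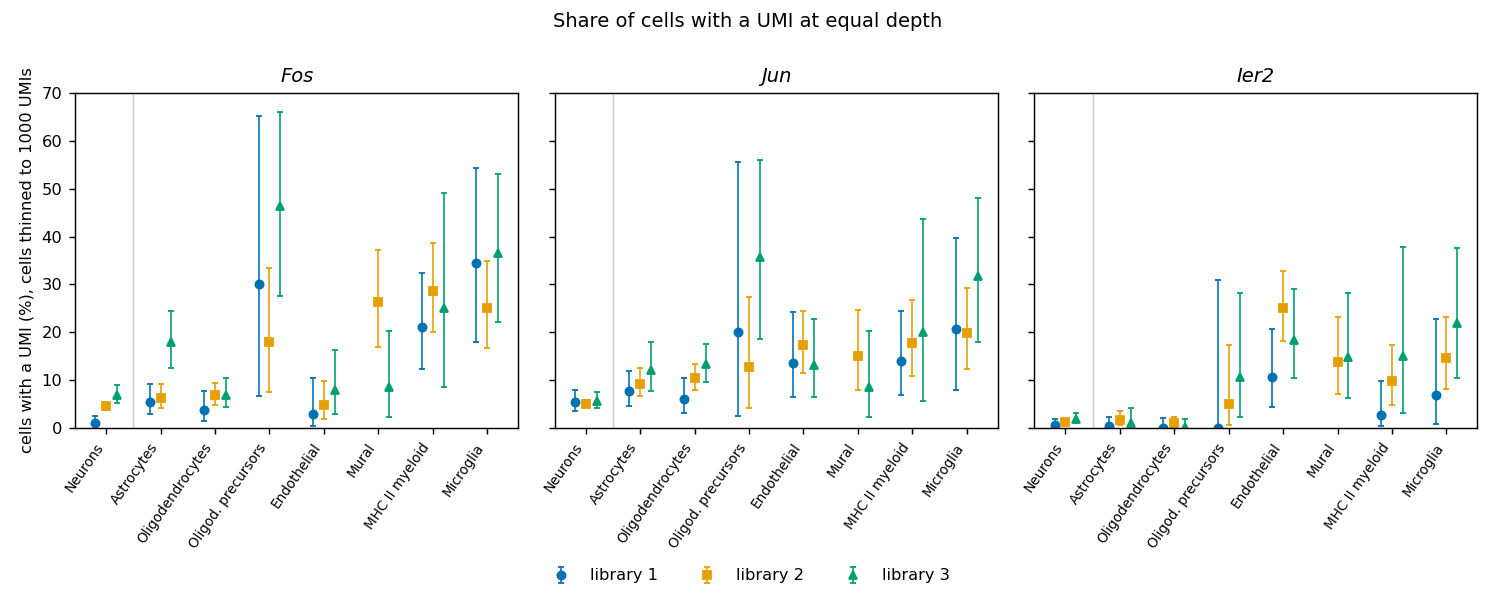
Share of cells with a UMI of Fos, Jun and Ier2 after thinning each cell to 1000 UMIs, by class and library, with exact 95% intervals; groups with under 10 thinned cells (mural cells of library 1) are left out. Read by these intervals, microglia lie clear of neurons in every library for Fos and Jun and in libraries 2 and 3 for Ier2, and endothelial cells in every library for Ier2, in library 2 for Jun and in no library for Fos.

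Several of the genes could be found in 1 cell. At 1000 UMIs, 42.8% ± 10.2 of the microglia kept by thinning (SD, n = 3 libraries) had UMIs of at least 3 of the 10 genes. So did 29.7% ± 2.84 of the MHC class II myeloid cells kept. The share was 11.7% ± 5.04 in endothelial cells, 13.9% ± 6.53 in precursors and 4.83% ± 3.11 in neurons. It was 1.97% ± 0.829 in astrocytes and 1.64% ± 1.43 in oligodendrocytes. In mural cells it was 27.5% in library 2 and 12.8% in library 3. Not every microglial cell carried the genes, since 21.4% ± 16.7 had no UMI of any of the 10. Among thinned microglia pooled over libraries, Jun was found in 24 of 49 cells with Fos (48.98%) and in 14 of 117 without it (11.97%). In neurons the same shares were 6.604% of 212 cells and 5.13% of 4351. They were 46.2% and 4.85% in mural cells, 39.1% and 14.8% in precursors and 33.3% and 14.4% in endothelial cells. The shares were 24.5% and 13.99% in MHC class II myeloid cells, 17.7% and 10% in oligodendrocytes and 15.9% and 8.81% in astrocytes. The Jun share was thus the higher one among cells with Fos in each of the 8 classes, over as few as 15 cells with Fos (endothelial). Cells are not replicates, so these are descriptions without a test. The cells were pooled, and Fos and Jun shares differed between libraries, which can by itself give such a difference. Its part was not tested.

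Within neurons, glutamatergic cells (marked by Slc17a7 and Tbr1) differed from the 2 kinds of spiny projection neuron in the summed counts of some of the genes. D1-like and D2-like neurons differed past the threshold in 0 of 9 genes tested by edgeR, while 0.591% and 0.379% of all 8963 genes were called higher and lower. DESeq2 also called 0, 2 genes (Fosl2 and Dusp1) had an unadjusted edgeR p below 0.05, and Atf3 did not pass the filter on low counts. Fos stood at 8.999, 47.99 and 45.2 CPM in D1-like cells and at 18.9, 46.3 and 53.9 CPM in D2-like cells. In glutamatergic neurons it stood at 45.96, 84.1 and 134 CPM, above the mean of both spiny classes by 1.17 ± 0.19, edgeR adjusted p = 1.55e-04. The ranges overlapped across libraries. Ier2 had 64.3, 37.7 and 68.3 CPM in glutamatergic cells against 4.5, 10.2 and 10.99 and 0, 7.03 and 7.09 CPM in the spiny classes (2.63 ± 0.299, edgeR adjusted p = 3.64e-06), with no overlap. Btg2 (1.81 ± 0.27, edgeR adjusted p = 7.53e-05) and Dusp1 (0.59 ± 0.17, edgeR adjusted p = 0.0139) were also called higher, so 4 of 9 genes were, where 14.6% of all genes were. The Dusp1 call was lost without library 2 (adjusted p = 0.199) and without library 3 (0.2199). Fosb was lower (-0.86 ± 0.31, edgeR adjusted p = 0.0499), 1 of 9 genes where 13.8% of all genes were, and this call was lost without any 1 of the libraries (adjusted p between 0.0568 and 0.384). Glutamatergic cells were deeper, with a median of 4668 UMIs against 2524 and 2422, and the part of depth was not tested. After thinning to 1000 UMIs, Fos was found in 0% (0 of 43 cells), 5.99% and 9.52% of glutamatergic cells. The thinned Fos shares were 0.901%, 4.24% and 5.36% in D1-like and 1.47%, 5.03% and 4.52% in D2-like cells, so library 1 went the other way. Thinned Ier2 shares were 2.33%, 3.59% and 4.76% in glutamatergic, 0.901%, 1.13% and 0.893% in D1-like and 0%, 0.516% and 0.905% in D2-like cells. The glutamatergic Ier2 level of 56.8 ± 16.6 CPM (mean ± SD) stayed below that of endothelial cells in every library (227 ± 101 CPM).

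T cells and fibroblasts had too few cells for a test. T cells held 3 Fos UMIs over all libraries, 34.3 CPM (exact Poisson 95% interval 7.07 to 100.2), and 16 of Ier2, 183 CPM (104 to 297). Their 29 Jun UMIs included 15 from 1 cell. Fibroblasts held 2 Fos UMIs, 18.8 CPM (2.27 to 67.8), and 15 of Jun, 141 CPM (78.7 to 232). The upper limits for Fos in both lie below the level of every microglial, MHC class II, mural or precursor library.

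Other genes of the pathway were read from lists. Of 34 other early response genes, 26 were tested, and 18 were higher and 5 lower in microglia, 16 and 5 in MHC class II myeloid cells, 14 and 5 in endothelial and 13 and 5 in mural cells. Of all genes, 21.3%, 22.5%, 25.3% and 18.2% were called higher in these 4 comparisons and 30.7%, 31.7%, 31.4% and 26.5% lower. The median log2 fold change against neurons was 2.36 in microglia and 2.29 in MHC class II myeloid cells. It was 1.06 in endothelial and 1.28 in mural cells. In astrocytes 10 were higher and 8 lower, in oligodendrocytes 8 and 9, and in precursors 6 and 7, where 27.8% and 32%, 26.2% and 33%, and 12.1% and 21.9% of all genes were called higher and lower. The astrocyte and oligodendrocyte counts lie near these background shares. Zfp36, whose protein drives decay of AU-rich mRNAs such as those of cytokines and Fos, stood at 400.0 ± 106 CPM in microglia and 3.84 ± 0.867 CPM in neurons (SD, n = 3; log2 fold change 6.97). Its relative Zfp36l1 was highest in endothelial cells, at 409 ± 5.74 CPM (6.13). Socs3, a feedback inhibitor of cytokine receptors, was called higher in all 7 classes, up to 292 ± 148 CPM in microglia (6.38).

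Of 20 other factors with the same kind of zipper domain, 14 were tested, and 8 were higher and 1 lower in each myeloid class. Endothelial and mural cells had 5 higher and 1 lower each, oligodendrocytes 5 and 4, astrocytes 3 and 4, and precursors 2 and 1. Against the background shares just given, the counts of higher genes in these 5 classes lie within 3 genes of what the share of all genes would give. Maff, a small Maf protein, was called higher in all 7 classes, with 31.7 ± 17.7 CPM in mural cells against 0.396 ± 0.4395 in neurons. Creb5 was led by precursors (103 ± 47.9 CPM) and oligodendrocytes (90.1 ± 32.3 CPM). Atf2, a partner of Jun, was called lower in all 7. Of 18 genes that act upstream of Fos (serum response factor, its partners and MAP kinases), 16 were tested, and between 10 and 12 were lower in each class, with at most 3 higher, while between 21.9% and 33% of all genes were called lower in these comparisons. Neurons are the reference in each, so the 7 counts are not independent of one another. Mkl2, a cofactor of serum response factor, and Mapk10, the neuronal JNK3, were called lower in all 7 classes.

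Over the 24 sums of 8 classes and 3 libraries, the non-member genes whose log2(CPM + 10) followed Fos most closely were Camk1 (Pearson r = 0.814), Serp1 (0.813) and Csk (0.804), among 3434 genes with a mean of at least 50 CPM. For Jun they were Tgfbr1 (0.817), Rps4x (0.813) and H2-Q4 (0.778), and for Ier2 Lgals9 (0.883), Arhgef1 (0.867) and Akap13 (0.842). Within the family, Ier2 and Dusp1 had r = 0.911 and Fos and Jun r = 0.825, whereas Fos and Fosl2 had r = 0.00248. The 24 sums share libraries and depth, so these are descriptions.

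Several of the genes differed between libraries in the same direction in most classes. Of the 8 classes, Fos was lowest in library 1 in 7 and highest in library 3 in 7. Ier2 was lowest in library 1 in all 8, and Junb highest in library 3 in all 8. Other genes did not follow this order. Fosl2 was highest in library 2 in 5 classes and lowest in library 3 in 3, Fosb was lowest in libraries 1, 2 and 3 in 3, 3 and 2 classes, and Atf3 was highest in libraries 2 and 3 in 3 classes each. Library 1 was also the shallowest and library 3 the deepest, and the part of depth was not tested. The Fos ratio of microglia to neurons was 29.5, 11.2 and 8.68 in libraries 1 to 3, while the Jun ratio was 5.25, 7.31 and 11.01. The Ier2 ratio of endothelial cells to neurons was 9.18, 17.6 and 8.88. Each of these ratios was above 1 in every library.

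In the annotation GENCODE M21 (mm10), Fos lies on chromosome 12 at 85473890 to 85477273, Jun lies on chromosome 4 at 95049034 to 95052222, Ier2 lies on chromosome 8 at 84661331 to 84662852, Btg2 lies on chromosome 1 at 134075170 to 134079120, Dusp1 lies on chromosome 17 at 26505590 to 26562128, and Atf3 lies on chromosome 1 at 191170296 to 191218039. Junb (84974484 to 84978718) and Jund (70698949 to 70700616) lie on chromosome 8 with Ier2, Fosb on chromosome 7 and Fosl2 on chromosome 5. The counts come from tags near the 3′ end of each gene.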

How the data were processed

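Single-cell RNA was measured in 3 libraries of the Thy1::ChR2 nucleus accumbens with a 3′ droplet assay. The authors deposited 1 matrix of UMI counts, made with Cell Ranger 3.0 on mm10 per the submitters' processing notes, with 28001 features and 11625 cells. The deposited counts are not normalized. Libraries were told apart by the barcode suffix, which the labels do not tie to replicate numbers.

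Barcodes needed 300 or more genes detected and no more than 20% of UMIs from mitochondria, which left 10291 (2350, 6079 and 1862 per library, with 2868822, 15625072 and 6440580 UMIs). A class was given by at least 2 of its markers, at least 3 marker UMIs and a lead of at least 3 times over other classes. The members and lists were chosen with earlier results of these data known, and the gate was set after the data were seen. Doublets were kept, apart from cells of mixed markers. Scrublet's automatic threshold marked 54, 0 and 10 cells, so it was not relied on, and an alternative removed the 44, 296 and 28 highest scores.

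Counts were summed per library and class and tested with edgeR 4.0.16 (R 4.3.3; quasi-likelihood, TMM scaling, low-count filter, library as block, Benjamini-Hochberg adjustment in each comparison over all genes tested). The block was used since sums of a library share its cells. The fit was run on simulated counts in which only microglia differed, in a small set of genes. That setting does not cover comparisons in which many genes differ, as here. A comparison with the other classes is on mean log levels, so it can differ from a ratio of mean CPM. Clustering used scanpy 1.11.5 on Python 3.11.15, without the early genes. The genes named are the 10 members, the 3 genes most correlated with each of Fos, Jun and Ier2, and in each list the 3 with the largest median fold among those called in a class, of which 1 is not reported here. Alternatives were DESeq2 1.42.0, upper quartile scaling, no low-count filter, the default prior, no block, each library left out, a stricter gate (a lead of 5), at least 1000 UMIs, at most 10% mitochondrial UMIs, doublets removed, clusters, a fit of 1 class and neurons alone, other thinning and detection limits and, added after the data were seen, adjustment over all comparisons together and shares without thinning. Sst-Npy and Pvalb neurons were too few to test.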

Additional observations from a re-analysis of the deposited data

How the results depend on the processing

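Of 103 called values, 72 kept their direction and call under every alternative run, and 0 changed sign. Over 1456 recomputed values, 93 lost the call. The 12 lower calls against neurons became 7 with no replicate block and ranged from 6 (without library 3) to 11 with a library left out, while the higher calls ranged from 32 to 42 over the alternatives. The samples of a pair are classes of 1 library, so the replicate block is the library term. Within neurons the 1 lower call (Fosb) became 0 with DESeq2, with at least 1000 UMIs, with at most 10% mitochondrial UMIs, with no low-count filter, with no replicate block and with each library left out (0 to 0). The 29 of 70 pairs of a gene and a class whose thinned share of cells exceeded neurons in each library became 19 when at least 2 UMIs were asked for. Of the 29, 3 are mural pairs (Fos, Jun and Dusp1) with 2 thinned cells in library 1. Of the values that did not pass, 49 recomputed ones changed sign and 28 gained the call. Ier2 in astrocytes against neurons went from -0.35 to 0.42 without library 3 and to -1.24 (past the threshold) without library 2. Fos in mural cells against the other classes passed at 1.13 without library 3 and turned to -0.35 without library 2. The cause was not tested. Upper quartile scaling moved the median of all genes against neurons by 0.104 to 0.34 on the log2 scale and DESeq2 by -0.27 to 0.196. Depth limits the rare classes most, above all mural cells of library 1 and precursors, where low genes rest on a few UMIs.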
